A study of Mus musculus with 20 samples.

Results

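What binding to the tumour adds when both antibodies carry the same payload was measured by setting 5 tumours from mice given an anti-rHER2 antibody conjugated to T785 against 5 tumours from mice given an isotype antibody conjugated to T785. The tumours were chosen by their treatment labels, anti-rHER2 T785-ISAC and Isotype T785-ISAC, and make up 10 of the 20 tumours of the series. All 770 genes of the nCounter panel were compared. The 2 groups are called the anti-rHER2 ISAC and the isotype ISAC below, and the other 10 tumours, 5 given unconjugated anti-rHER2 and 5 given the isotype antibody alone, served to measure the effect of binding without T785.

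All 20 tumours were MMC tumours, grown under the skin of FVB/N-TgN(MMTV-Erbb2)NK1Mul/J hosts that were 6 to 8 weeks old at implantation. MMC is a mouse mammary carcinoma line, so every tumour came from 1 line, and in the hosts the MMTV promoter drives an Erbb2 transgene. That promoter is active mainly in mammary epithelium. Mice were assigned to groups by tumour size once tumours measured 200 to 500 mm3, received 5 mg/kg into the peritoneum, and gave their tumours on day 1. Each tumour came from a different mouse and is 1 replicate.

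As background, an immune-stimulating antibody conjugate (ISAC) joins a tumour-binding antibody to an agonist of innate immune receptors. T785 is an agonist of TLR7 and TLR8, sensors of single-stranded RNA that sit in the endosomes of macrophages, monocytes and dendritic cells and signal through MyD88 to NF-kB and interferon regulatory factors. Antibody on a tumour cell is bound by Fc-gamma receptors of these phagocytes, which take up the coated material and bring the payload to the endosome, whereas an isotype conjugate carries the payload on an antibody with no target on the tumour cell.

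Values are the authors' normalized signal. Above a floor of 1 they are a count of probe molecules multiplied by 1 factor per tumour. With the anti-rHER2 ISAC 398311 to 508433 counts were recovered per tumour, and with the isotype ISAC 320787 to 431518 (exact permutation test, 2-sided p = 0.0238). The median signal of the 770 genes was 93.5 ± 11.6 (SD, n = 5) with the anti-rHER2 ISAC and 56.3 ± 5.10 (SD, n = 5) with the isotype ISAC, and the groups did not overlap (exact permutation test, 2-sided p = 0.00794, the smallest that 5 against 5 allows). Within the anti-rHER2 ISAC group replicate 2 had the lowest panel median, 75.8, and replicate 3 the highest, 106. The direction of genes with small changes turned with the scaling of the tumours, and each result below is under the deposited scaling unless stated.

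With the anti-rHER2 ISAC, 277 of 770 genes were higher and 30 were lower than with the isotype ISAC (limma, adjusted p below 0.05), which is 36.0% and 3.90% of the panel and 39.9% in all. Of the genes that rose, 123 rose at least 2-fold and 35 at least 4-fold, and 3 of those that fell did so at least 2-fold. In 187 of the 277 genes every anti-rHER2 ISAC tumour lay above every isotype ISAC tumour, and in 14 of the 30 every one lay below. Over all genes these shares were 24.7% above and 2.08% below. The genes are grouped below into lists by function. In the 17 lists with no member called lower, 1 of 305 members was lower at an unadjusted p below 0.05 and 0 by edgeR. Over the panel 44 of 770 genes were lower at that unadjusted p and 33 by edgeR. These 17 lists were picked because no member was called lower in the same data, so their low counts are no separate evidence. Replicate 2 was the lowest anti-rHER2 ISAC tumour for 175 of the 277 genes and replicate 3 the highest for 145. Without replicate 2, 291 genes were higher. The split into higher and lower turned with the scaling. With equal panel medians, where each tumour's median over all genes is made the same, 79 genes were higher and 301 lower, all 79 being among the 277. Another 23 of the 277 were called lower with equal panel medians. With median-ratio scaling, where each tumour is scaled by its median ratio to the gene means, 164 were higher and 142 lower, all 164 being among the 277. With that scaling 0 genes were called in the opposite direction. The median log2 fold change of all genes moved from 0.29 to -0.37 and -0.04 under these scalings. For each list below, calls under the 2 scalings are to be read against these panel counts out of 770.

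**Figure D1:**
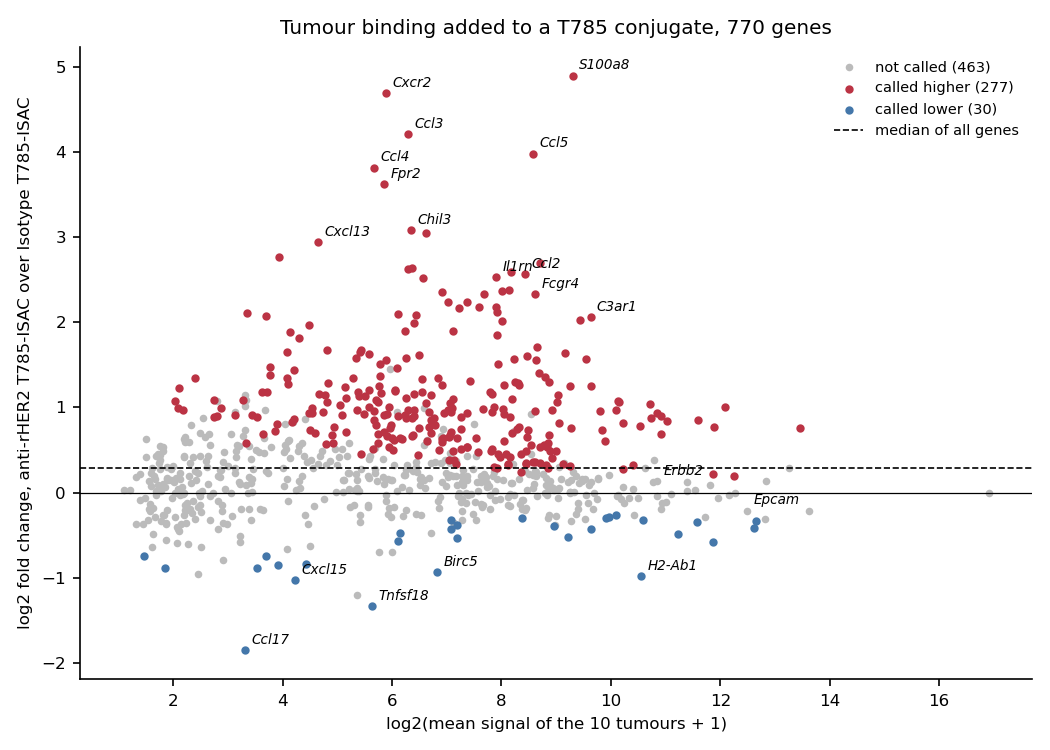
Log2 fold change of each of the 770 genes, anti-rHER2 ISAC over isotype ISAC, on the vertical axis against the gene's mean signal on a log axis, with genes called at an adjusted p below 0.05 marked. The 277 higher genes reach 4.89, while the 30 lower genes reach -1.85.

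Markers of neutrophils and chemokines that attract monocytes were among the genes that rose most, with S100a8, a calcium-binding alarmin of neutrophils and monocytes, at the top. S100a8 signals were 1335, 574, 1783, 1349 and 1085 in the anti-rHER2 ISAC tumours, in replicate order, and 46.9, 44.3, 23.9, 49.7 and 30.6 in the isotype ISAC tumours. The lowest of the former was over 10 times the highest of the latter. Its log2 fold change, on the log2(signal + 1) scale and ± SE here and below, was 4.89 ± 0.30 (limma adjusted p = 7.6e-10). Without T785, S100a8 was 71.0 to 174 in anti-rHER2 tumours and 22.0 to 41.4 in isotype antibody tumours, so that the unconjugated antibody tumours too lay above their controls.

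Cxcr2, the receptor through which neutrophils follow CXC chemokines, stood at a few counts with the isotype ISAC. Its signals were 129.8, 71.9, 161, 116 and 87.4 with the anti-rHER2 ISAC and 3.83, 1.14, 2.56, 7.09 and 3.67 with the isotype ISAC, the latter resting on at most 6 counts. Every tumour of the first group lay above every tumour of the second, with a log2 fold change of 4.69 ± 0.36 (adjusted p = 6.7e-09).

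Ccl3, Ccl4 and Ccl5 encode inflammatory chemokines made by activated macrophages, NK cells and T cells. Ccl3 signals were 128, 122, 268, 128 and 95.2 with the anti-rHER2 ISAC and 7.65, 9.08, 9.40, 3.55 and 4.89 with the isotype ISAC. Replicate 3 stood above the other 4, which lay close together, and the groups did not overlap (log2 fold change 4.21 ± 0.41, adjusted p = 1.4e-07). Ccl5 signals were 946, 436, 1123, 474 and 638 against 52.6, 42.0, 49.6, 30.7 and 37.9, again without overlap. The log2 fold change of Ccl5 was 3.98 ± 0.28 (adjusted p = 2.3e-09), and that of Ccl4 was 3.81 ± 0.32 (adjusted p = 2.2e-08), with signals of 71.3 to 153 against 2.87 to 8.28.

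**Figure D2:**
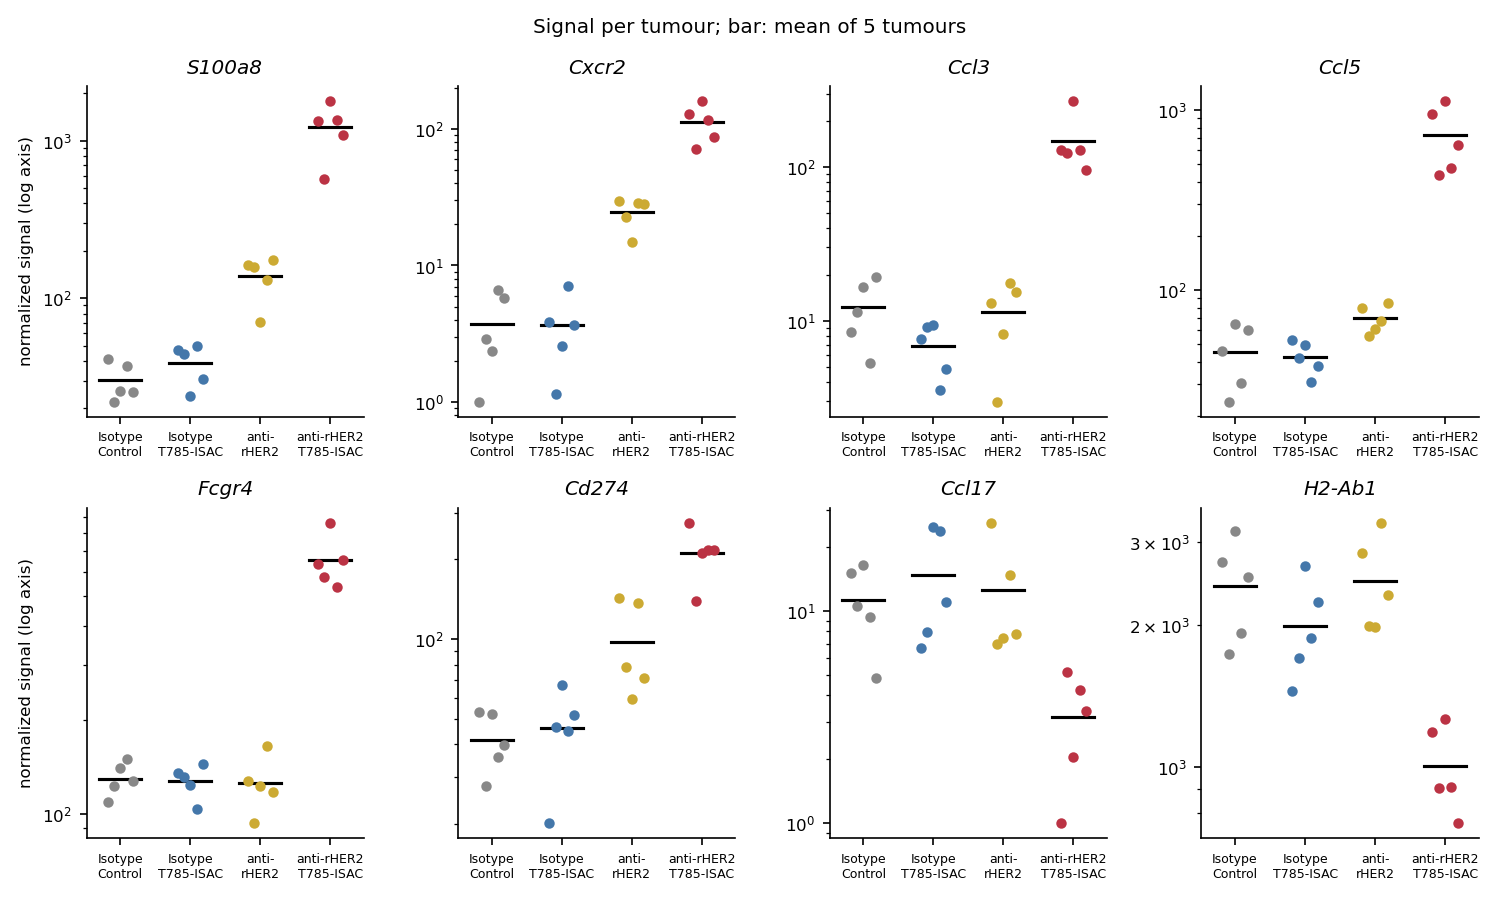
Normalized signal of selected genes in every tumour of the 4 groups on a log axis, each point being 1 tumour and each bar a group mean. S100a8, Cxcr2, Ccl3 and Ccl5 are higher in all 5 anti-rHER2 ISAC tumours than in any isotype ISAC tumour, and Ccl17 is lower in all 5.

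The promoters of S100a8, Cxcr2, Ccl3 and Ccl5, the 4 largest rises, were looked up because of the size of the rise. Whether these genes share regulation was not tested. RefSeq (GRCm38.p6) gave the sequence from 250 bases before to 50 after the start of S100a8, Cxcr2 and Ccl3, printed 5′ to 3′ on the gene's strand. S100a8 is at chr3:90668821-90669120 on the plus strand, Cxcr2 at chr1:74153744-74154043 on the plus strand and Ccl3 at chr11:83649329-83649628 on the minus strand.
S100a8: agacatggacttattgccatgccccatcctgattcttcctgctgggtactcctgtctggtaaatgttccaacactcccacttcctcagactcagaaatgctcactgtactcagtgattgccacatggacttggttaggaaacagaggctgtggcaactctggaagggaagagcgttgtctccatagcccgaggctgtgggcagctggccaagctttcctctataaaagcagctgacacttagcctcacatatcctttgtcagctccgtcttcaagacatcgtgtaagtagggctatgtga
Cxcr2: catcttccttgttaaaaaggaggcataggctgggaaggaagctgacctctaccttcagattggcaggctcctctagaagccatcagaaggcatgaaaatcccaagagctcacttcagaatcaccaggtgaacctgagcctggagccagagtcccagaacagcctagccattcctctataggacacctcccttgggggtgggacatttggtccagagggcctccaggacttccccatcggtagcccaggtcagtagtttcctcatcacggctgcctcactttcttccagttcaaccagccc
Ccl3: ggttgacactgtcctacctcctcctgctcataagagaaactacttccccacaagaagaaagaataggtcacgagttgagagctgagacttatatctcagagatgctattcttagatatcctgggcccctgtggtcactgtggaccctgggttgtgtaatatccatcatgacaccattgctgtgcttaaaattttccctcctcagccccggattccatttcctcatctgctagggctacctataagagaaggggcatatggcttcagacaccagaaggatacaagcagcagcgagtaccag
None of 4 motifs searched on both strands was found in these windows, so no letter is in capitals. They were GGG and TTTCC set apart by any 2 bases for NF-kB, TTTC repeated after any 2 bases for interferon-stimulated response elements, TTCNNNGAA for STAT factors and TTGCNNAA for C/EBP factors, and 1.62%, 3.49%, 8.47% and 10.8% of the 27025 promoters in the table hold them, in that order. The second can overlap a STAT match in part, and a missing match says only that these letters are not in the window.

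All 10 measured members of the Fc-gamma receptor list rose, against 36.0% of the panel. Their median log2 fold change was 1.38 against 0.29 over all genes. Calls for that list were 7 higher and none lower with equal panel medians and 9 and none with median-ratio scaling, at medians of 0.67 and 1.02. Fcgr4 encodes a mouse activating receptor for IgG2 antibodies found on neutrophils, monocytes and macrophages. Its signals were 636, 576, 863, 535 and 655 with the anti-rHER2 ISAC and 135, 132, 124, 104 and 144 with the isotype ISAC, with no overlap (log2 fold change 2.33 ± 0.15, adjusted p = 1.2e-09). Fcer1g, the signalling chain shared by the activating Fc receptors, rose by 2.02 ± 0.14 on the log2 scale (adjusted p = 2.3e-09). Fcgr1, the high-affinity receptor, was 404 to 829.5 with the anti-rHER2 ISAC against 137 to 245 with the isotype ISAC (log2 fold change 1.70 ± 0.19, adjusted p = 1.1e-06).

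The inhibitory receptor gene Fcgr2b rose too, at 1212 to 2006 against 521 to 1017 (log2 fold change 1.07 ± 0.21, adjusted p = 0.000489). Its call was no longer made with equal panel medians, at a log2 fold change of 0.34 and an adjusted p of 0.116. Fcgr3, a low-affinity activating receptor, had the smallest rise of the 4 receptors, 0.64 ± 0.21 (adjusted p = 0.0175). That call was no longer made with equal panel medians, with median-ratio scaling and without anti-rHER2 ISAC replicate 3, at a log2 fold change of -0.08 to 0.51 and an adjusted p of 0.0577 to 0.728, and its sign turned with equal panel medians. Under both other scalings Fcgr4, Fcer1g and Fcgr1 stayed higher.

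Of the 25 Toll-like receptors and adaptors, 11 rose and none fell, against 36.0% higher over the panel, with a median of 0.12 that turned to -0.60 with equal panel medians and -0.24 with median-ratio scaling. Calls in these 25 were 3 higher and 12 lower with equal panel medians and 7 and 6 with median-ratio scaling. Of the payload's receptors Tlr8 passed the test and Tlr7 did not, and the difference between them was not tested. Tlr8 signals were 272, 205, 278, 215 and 249.9 with the anti-rHER2 ISAC and 104, 108, 102, 79.2 and 95.4 with the isotype ISAC, without overlap (log2 fold change 1.31 ± 0.17, adjusted p = 5.2e-06). Tlr7 signals were 38.4, 25.7, 35.1, 26.3 and 17.9 with the anti-rHER2 ISAC and 15.3, 24.98, 23.1, 24.8 and 15.9 with the isotype ISAC, and the log2 fold change of 0.43 ± 0.27 did not pass the test (adjusted p = 0.219) and was negative with equal panel medians. Tlr1, a partner of TLR2 for bacterial lipopeptides, rose by 1.61 ± 0.23 and Irf5, a transcription factor downstream of MyD88, by 1.26 ± 0.20 on the log2 scale (adjusted p = 1.7e-05 and 5.1e-05).

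In the NF-kB pathway 7 of 14 measured genes rose and none fell, against 36.0% higher over the panel. The median of 0.26 turned to -0.47 with equal panel medians and -0.11 with median-ratio scaling. NF-kB calls were 1 higher and 9 lower with equal panel medians and 3 and 4 with median-ratio scaling. Ikbke, an IkB kinase of the interferon-inducing branch, rose by 1.56 ± 0.19 on the log2 scale (adjusted p = 2.9e-06). The inhibitors Nfkbia and Tnfaip3, themselves NF-kB targets, rose by 0.92 ± 0.18 and 0.90 ± 0.19 (adjusted p = 0.000619 and 0.000832), and neither was called with equal panel medians.

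The monocyte chemokine axis held 12 rises and no fall among 15 measured genes, against 36.0% and 3.90% of the panel. Its median was 1.45. Calls on the axis were 7 higher and 1 lower with equal panel medians and 8 and none with median-ratio scaling, at medians of 0.77 and 1.11. Ccl2, which draws CCR2-bearing monocytes, had signals of 474, 385, 1152, 436 and 522 with the anti-rHER2 ISAC and 69.8, 80.6, 133, 88.7 and 95.4 with the isotype ISAC. Replicate 3 was more than 2 times the next tumour, and the groups did not overlap (log2 fold change 2.56 ± 0.27, adjusted p = 3.8e-07). Ccl12, a second mouse CCR2 ligand, was 499.6 to 1074 against 67.0 to 129.9 (log2 fold change 2.70 ± 0.29, adjusted p = 4.7e-07).

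Neutrophil genes rose in 7 of 13 measured, against 36.0% higher over the panel, with a median of 1.48. Neutrophil gene calls were 6 higher and 2 lower with equal panel medians and 7 and none with median-ratio scaling, at medians of 0.81 and 1.14. Besides S100a8 and Cxcr2, Fpr2, a formyl peptide receptor, had signals of 118, 70.2, 141, 100.1 and 99.7 with the anti-rHER2 ISAC and 6.70, 14.8, 4.27, 7.09 and 7.34 with the isotype ISAC, without overlap. Its log2 fold change was 3.62 ± 0.27 (adjusted p = 4.2e-09). Csf3r, the G-CSF receptor, rose by 2.62 ± 0.27 on the log2 scale (adjusted p = 4.1e-07). The summed signal of S100a8, Cxcr2 and Csf3r, the 3 measured of 4 listed neutrophil markers, was 708 to 2123 with the anti-rHER2 ISAC and 49.6 to 72.1 with the isotype ISAC, and the tumour at 708 was replicate 2. In bulk tumour RNA, more cells of a type and more RNA per cell cannot be told apart, here or in the results below, and how far neutrophil RNA enters the other results was not tested.

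Chemoattractants and growth factors of neutrophils showed no rise that passed the test. Of 13 measured, 0 were called higher by limma (1 at an unadjusted p below 0.05, 0 by edgeR) and 2 were lower, with a median of -0.27. Over the panel 36.0% were higher and 3.90% lower. Of the 13, 4 had at most 10 counts in every ISAC tumour, against 118 of 770 over the panel. The chemoattractant calls were none higher and 6 lower with equal panel medians and none and 4 with median-ratio scaling, at medians of -0.73 and -0.50. Cxcl1, a ligand of CXCR2, had signals of 18.3, 13.7, 10.3, 17.8 and 12.3 with the anti-rHER2 ISAC and 25.8, 28.4, 23.1, 36.7 and 19.6 with the isotype ISAC, and every tumour of the first group lay below every tumour of the second (log2 fold change -0.84 ± 0.22, adjusted p = 0.00481). Cxcl15, another CXC chemokine, was 5.60 to 17.1 against 18.8 to 34.3 (log2 fold change -1.03 ± 0.25, adjusted p = 0.00288). Both were also called lower under both other scalings.

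Among 24 chemokines and receptors of lymphocytes and dendritic cells, 7 rose and 2 fell, against 36.0% and 3.90% of the panel. Their median of 0.34 turned to -0.30 with equal panel medians. Calls in these 24 were 3 higher and 5 lower with equal panel medians and 4 and 2 with median-ratio scaling. Cxcl13, which attracts B cells and follicular T cells, had signals of 28.4, 33.4, 45.4, 30.5 and 78.4 with the anti-rHER2 ISAC and 1.91, 9.08, 5.98, 3.55 and 3.67 with the isotype ISAC, a log2 fold change of 2.94 ± 0.41 (adjusted p = 1.3e-05) without overlap. Cxcl9, an interferon-gamma target that attracts CXCR3-bearing T cells, had signals of 482, 235, 736, 277 and 426 with the anti-rHER2 ISAC and 38.3, 76.1, 165, 79.2 and 66.1 with the isotype ISAC. Its log2 fold change was 2.37 ± 0.38 (adjusted p = 6.1e-05). Cxcl10, a ligand of the same receptor, was 98.5 to 167 against 38.3 to 159.9 and overlapped, with a log2 fold change of 0.75 ± 0.31 that missed the threshold (adjusted p = 0.0641). Cxcl10 was called higher with the genes of lowest mean signal left out, with a trended prior, and without isotype ISAC replicate 3, anti-rHER2 replicate 1 or anti-rHER2 ISAC replicate 2, at a log2 fold change of 0.75 to 0.97 and an adjusted p of 0.0145 to 0.0485.

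Ccl17, a ligand of CCR4 made by dendritic cells, fell most of all genes. Its signals were 1.00, 5.14, 2.06, 4.24 and 3.36 with the anti-rHER2 ISAC and 6.70, 7.95, 24.8, 23.6 and 11.01 with the isotype ISAC, and the groups did not overlap. The log2 fold change was -1.85 ± 0.43 (adjusted p = 0.00197), on signals of a few counts in the lower group. Ccl1, a ligand of CCR8, was 5.49 to 13.7 against 11.3 to 27.4 (log2 fold change -0.85 ± 0.26, adjusted p = 0.0137). The Ccl1 call was no longer made with only these 10 tumours in the fit, at a log2 fold change of -0.85 and an adjusted p of 0.0502.

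Monocyte and macrophage markers rose in 12 of 18, against 36.0% higher over the panel, with a median of 0.83. The macrophage calls were 5 higher and 6 lower with equal panel medians and 8 and 1 with median-ratio scaling, at medians of 0.11 and 0.47. Slc11a1, a metal transporter of phagosomes, was 95.04 to 181 against 15.4 to 28.1 (log2 fold change 2.64 ± 0.20, adjusted p = 4.2e-09). Itgam, the alpha chain of complement receptor 3 on macrophages and neutrophils, had signals of 497, 373, 646, 447 and 515 with the anti-rHER2 ISAC and 75.6, 88.6, 65.8, 62.7 and 117 with the isotype ISAC. The groups were far apart, with a log2 fold change of 2.60 ± 0.18 (adjusted p = 2.3e-09), and Itgb2, its beta chain, rose by 2.38 ± 0.17 (adjusted p = 2.3e-09). Msr1, a scavenger receptor, rose by 2.01 ± 0.17 on the log2 scale (adjusted p = 1.6e-08). Of the 18, 6 were not called. They included Lyz2 with a log2 fold change of -0.20 (adjusted p = 0.470), Cd14 with -0.06 (adjusted p = 0.847) and Csf1r with 0.24 (adjusted p = 0.194). The sum of the macrophage markers Emr1, Csf1r, Cd68 and Cd163 was 1751 to 2768 against 890.4 to 1394.

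Complement genes rose in 15 of 29 and fell in 3, against 36.0% and 3.90% of the panel, with a median of 0.77. Complement calls were 5 higher and 7 lower with equal panel medians and 12 and 3 with median-ratio scaling, at medians of 0.04 and 0.40. The largest rises were of the receptors for the anaphylatoxins, C5ar1 at 2.12 ± 0.23 and C3ar1 at 2.06 ± 0.16 on the log2 scale (adjusted p = 8.1e-07 and 4.7e-09). Cfb, factor B of the alternative pathway, was 315 to 809 against 141 to 224 (log2 fold change 1.61 ± 0.27, adjusted p = 0.000106). C9 was 1.00 to 1.12 against 1.14 to 3.67, at most 3 counts in either group, so that no fold is given, and its call was no longer made with a pseudocount of 10, by edgeR and without isotype ISAC replicate 1 or 5 or without anti-rHER2 ISAC replicate 1, at an adjusted p of 0.0501 to 0.107. Leukocyte adhesion genes rose in 10 of 22 and fell in 1, against 36.0% and 3.90% of the panel. Their median of 0.41 turned to -0.27 with equal panel medians. Adhesion calls were 6 higher and 9 lower with equal panel medians and 9 and 5 with median-ratio scaling. Over the panel they were 79 and 301, then 164 and 142, of 770 genes.

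Inflammatory cytokines and enzymes rose in 7 of 20, against 36.0% higher over the panel, with none lower and a median of 0.18 that turned to -0.42 with equal panel medians and -0.14 with median-ratio scaling. Cytokine and enzyme calls were none higher and 6 lower with equal panel medians and 3 and 4 with median-ratio scaling. Tnf, the classic product of activated macrophages, had signals of 7.32, 5.99, 23.7, 7.63 and 4.48 with the anti-rHER2 ISAC and 5.74, 4.54, 6.84, 3.55 and 8.56 with the isotype ISAC. Replicate 3 alone stood above the isotype ISAC tumours, and the log2 fold change of 0.48 ± 0.35 did not pass (adjusted p = 0.301) and was negative with equal panel medians. Il12b, the p40 chain of IL-12 and IL-23, was 9.33 to 33.8 against 4.54 to 13.0 (log2 fold change 1.27 ± 0.33, adjusted p = 0.00502), Ifng 3.36 to 9.29 against 1.14 to 3.83 (1.34 ± 0.33, adjusted p = 0.00334) and Osm, oncostatin M, 23.7 to 49.4 against 10.6 to 23.2 (1.14 ± 0.37, adjusted p = 0.02). Il12b and Ifng were not called with equal panel medians, and the Osm call was no longer made with equal panel medians, with median-ratio scaling and without isotype ISAC replicate 4 or without anti-rHER2 ISAC replicate 1, at a log2 fold change of 0.45 to 1.03 and an adjusted p of 0.0539 to 0.328. Il6 was 4.28 to 11.03 against 2.36 to 6.81 (log2 fold change 1.00 ± 0.36, adjusted p = 0.0352), and its call was no longer made with equal panel medians, with median-ratio scaling, with a replicate block and without isotype ISAC replicate 3, 4 or 5 or without anti-rHER2 ISAC replicate 1, 3, 4 or 5, at a log2 fold change of 0.38 to 1.00 and an adjusted p of 0.0527 to 0.408.

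Antagonists and suppressive myeloid genes rose in 14 of 23 with none lower, against 36.0% higher over the panel. Their median of 0.63 turned to -0.07 with equal panel medians. Calls in these 23 were 5 higher and 7 lower with equal panel medians and 8 and none with median-ratio scaling. Il1rn, the secreted antagonist of the interleukin-1 receptor, had signals of 433, 278, 558, 334 and 440.3 with the anti-rHER2 ISAC and 63.1, 67.0, 61.6, 65.0 and 84.4 with the isotype ISAC, without overlap. Its log2 fold change was 2.53 ± 0.18 (adjusted p = 2.3e-09). Il10, which restrains macrophages and dendritic cells, had signals of 24.7, 26.5, 47.5, 18.7 and 12.3 with the anti-rHER2 ISAC and 2.87, 3.41, 2.56, 3.55 and 1.22 with the isotype ISAC, the latter at most 3 counts, with a log2 fold change of 2.77 ± 0.33 (adjusted p = 2.5e-06). Chil3, a lectin of alternatively activated macrophages and of neutrophils, varied widely within groups, at 240.5, 122, 72.2, 73.8 and 203 with the anti-rHER2 ISAC and 9.57, 5.68, 44.5, 9.46 and 22.0 with the isotype ISAC, with a log2 fold change of 3.08 ± 0.73 (adjusted p = 0.0025).

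Type I interferon response genes rose in 22 of 30 with none lower, against 36.0% higher over the panel, with a median of 0.95. Type I response calls were 7 higher and 5 lower with equal panel medians and 16 and 3 with median-ratio scaling, at medians of 0.23 and 0.58. Ifitm1, a membrane protein that blocks viral entry, had signals of 159, 101, 228, 136 and 182 with the anti-rHER2 ISAC and 23.9, 34.1, 17.1, 42.6 and 20.8 with the isotype ISAC (log2 fold change 2.52 ± 0.26, adjusted p = 4.1e-07). Oasl1, an antiviral OAS family member, rose by 1.59 ± 0.23 and Ifit3, an inhibitor of viral RNA translation, by 1.57 ± 0.31 on the log2 scale (adjusted p = 1.8e-05 and 0.000522). All 3 had no overlap between groups. The interferon genes themselves were low. Ifnb1 signals were 1.00, 1.71, 1.03, 3.39 and 2.24 with the anti-rHER2 ISAC and 7.65, 1.14, 2.56, 2.36 and 1.22 with the isotype ISAC, the log2 fold change of -0.33 ± 0.36 did not pass (adjusted p = 0.493), and without isotype ISAC replicate 1 it was 0.00. Among 9 interferons and receptors, Ifng and Ifngr1 rose, Ifngr1 by 0.41 ± 0.11 (adjusted p = 0.0059), but it was called lower with equal panel medians (-0.32, adjusted p = 0.0182) and not called with median-ratio scaling (0.04, adjusted p = 0.759). Calls in these 9 were none higher and 4 lower with equal panel medians and 1 and 1 with median-ratio scaling. With the deposited scaling 2 were higher and none lower, against 36.0% higher over the panel. Of the 9, 6 had at most 10 counts in every ISAC tumour, against 118 of 770 over the panel.

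Interferon-gamma response genes rose in 10 of 21 with none lower, against 36.0% higher over the panel, with a median of 0.80. Gamma response calls were 2 higher and 6 lower with equal panel medians and 8 and 1 with median-ratio scaling, at medians of 0.08 and 0.44. Cd274, which encodes the checkpoint ligand PD-L1, had signals of 275, 139, 212, 216 and 216 with the anti-rHER2 ISAC and 20.1, 46.5, 66.7, 44.9 and 51.4 with the isotype ISAC. The groups did not overlap, with a log2 fold change of 2.24 ± 0.30 (adjusted p = 9.4e-06). Gbp5, a guanylate-binding protein, rose by 1.33 ± 0.32 on the log2 scale (adjusted p = 0.00266), a call not made with equal panel medians.

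Of 18 MHC class I genes, 11 rose and 1 fell, against 36.0% and 3.90% of the panel. Their median of 0.67 turned to -0.05 with equal panel medians. Class I calls were none higher and 1 lower with equal panel medians and 6 and 1 with median-ratio scaling. H2-D1, a classical class I heavy chain, had signals of 7284, 4789.5, 6939, 4421 and 5524 with the anti-rHER2 ISAC and 2140.2, 2959, 3769, 2677 and 2787 with the isotype ISAC, a log2 fold change of 1.01 ± 0.20 (adjusted p = 0.000585). The immunoproteasome subunit Psmb8 rose by 1.15 ± 0.25 and the class I transactivator Nlrc5 by 0.94 ± 0.25 (adjusted p = 0.00132 and 0.00584). None of these 3 was called with equal panel medians.

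Of 11 MHC class II genes, 1 rose and 2 fell, against 36.0% and 3.90% of the panel, with a median of -0.29. Class II calls were none higher and 9 lower with equal panel medians and 1 and 7 with median-ratio scaling, at medians of -0.99 and -0.64. H2-Ab1, a class II beta chain, had signals of 1191, 904, 1264, 909 and 761 with the anti-rHER2 ISAC and 1448, 1701, 2675, 1884 and 2245 with the isotype ISAC. Every tumour of the first group lay below every tumour of the second (log2 fold change -0.98 ± 0.21, adjusted p = 0.000871). The fall was also called under both other scalings. H2-Aa, its alpha chain partner, was 2276 to 3794 against 3479 to 6524 (log2 fold change -0.58 ± 0.23, adjusted p = 0.0463). That call was no longer made with only these 10 tumours in the fit and without isotype antibody replicate 1 or 5 or without isotype ISAC replicate 2, 3 or 5 or without anti-rHER2 replicate 1 or 5 or without anti-rHER2 ISAC replicate 2, 4 or 5, at a log2 fold change of -0.63 to -0.44 and an adjusted p of 0.0504 to 0.128. The member that rose was Ctss, cathepsin S, a protease that processes the invariant chain, by 0.84 ± 0.14 on the log2 scale (adjusted p = 9.1e-05), a call not made with equal panel medians.

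Dendritic cell markers rose in 5 of 15 and fell in 3, against 36.0% higher and 3.90% lower over the panel, with a median of 0.10 that turned to -0.54 with equal panel medians and -0.23 with median-ratio scaling. Dendritic cell calls were 3 higher and 7 lower with equal panel medians and 5 and 5 with median-ratio scaling. Clec4a2, an inhibitory lectin receptor of myeloid cells, rose by 2.17 ± 0.19 and Ccr7, which guides mature dendritic cells to lymph nodes, by 1.68 ± 0.30 on the log2 scale (adjusted p = 4.7e-08 and 0.000187). Cd207, langerin of Langerhans cells and some dendritic cells, was 4.13 to 11.2 against 8.55 to 17.7 (log2 fold change -0.89 ± 0.30, adjusted p = 0.0264). The Cd207 call was no longer made without isotype ISAC replicate 4 or 5 or without anti-rHER2 ISAC replicate 3 or 4, at a log2 fold change of -0.84 to -0.73 and an adjusted p of 0.0547 to 0.0778.

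Co-stimulatory genes rose in 6 of 19 and fell in 1, against 36.0% and 3.90% of the panel, with a median of 0.43 that turned to -0.13 with equal panel medians. Co-stimulatory calls were 2 higher and 4 lower with equal panel medians and 5 and 3 with median-ratio scaling. Cd86, a ligand of CD28, had signals of 69.5, 39.4, 60.9, 60.2 and 67.2 with the anti-rHER2 ISAC and 42.1, 61.3, 53.9, 61.5 and 55.0 with the isotype ISAC, which overlapped, with a log2 fold change of 0.10 ± 0.21 (adjusted p = 0.727). Cd86 was called lower with equal panel medians (-0.61, adjusted p = 0.00449) and was negative but not called with median-ratio scaling (-0.26, adjusted p = 0.267). Cd40 was 19.7 to 64.9 against 19.1 to 28.4 (log2 fold change 0.71 ± 0.24, adjusted p = 0.0219), and its call was no longer made with equal panel medians, with median-ratio scaling, with only these 10 tumours in the fit and without isotype ISAC replicate 1 or without anti-rHER2 ISAC replicate 1 or 3, at a log2 fold change of 0.01 to 0.71 and an adjusted p of 0.0592 to 0.969. Tnfsf14, also called LIGHT, and Slamf7, a SLAM family receptor, rose by 1.39 ± 0.36 and 1.36 ± 0.21 on the log2 scale (adjusted p = 0.00441 and 3.4e-05), Tnfsf14 not being called with equal panel medians. Tnfsf18, the ligand of GITR, a receptor of T cells, was 17.8 to 56.0 against 45.9 to 105 (log2 fold change -1.34 ± 0.32, adjusted p = 0.00266).

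Checkpoint and regulatory T cell genes rose in 6 of 15 with none lower, against 36.0% higher over the panel, with a median of 0.70. Checkpoint calls were 2 higher and 5 lower with equal panel medians and 5 and 2 with median-ratio scaling, at medians of 0.11 and 0.40. Besides Cd274, Ctla4 was 35.1 to 96.0 against 3.41 to 37.6 (log2 fold change 1.67 ± 0.48, adjusted p = 0.0094) and Il2ra, the CD25 chain of the IL-2 receptor, 37.7 to 96.4 against 13.6 to 42.8 (1.63 ± 0.50, adjusted p = 0.0144). Each had 1 anti-rHER2 ISAC tumour within the isotype ISAC range, and neither was called with equal panel medians.

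Cytotoxic and NK cell genes rose in 9 of 32 with none lower, against 36.0% higher over the panel. Their median of 0.41 turned to -0.20 with equal panel medians. Of the 32, 10 had at most 10 counts in every ISAC tumour, against 118 of 770 over the panel. Cytotoxic gene calls were 5 higher and 6 lower with equal panel medians and 7 and 1 with median-ratio scaling. Gzmb, granzyme B of cytotoxic granules, had signals of 267, 263, 369, 296 and 374 with the anti-rHER2 ISAC and 43.0, 80.6, 72.7, 75.7 and 75.8 with the isotype ISAC. The groups lay far apart, with a log2 fold change of 2.17 ± 0.20 (adjusted p = 9.0e-08). Prf1, perforin, rose by 2.095 ± 0.37 and Klra17, which encodes Ly49Q of myeloid cells and plasmacytoid dendritic cells, by 2.08 ± 0.22 on the log2 scale (adjusted p = 0.000203 and 3.9e-07). Ncr1, the NK cell receptor NKp46, had signals of 132, 105, 210.5, 119 and 127 with the anti-rHER2 ISAC and 85.2, 137, 142, 116 and 119.9 with the isotype ISAC, and its log2 fold change of 0.18 ± 0.22 did not pass (adjusted p = 0.538). Ncr1 was called lower with equal panel medians (-0.54, adjusted p = 0.0269) and was negative but not called with median-ratio scaling (-0.18, adjusted p = 0.521). The NK marker sum was 254 to 490.1 against 177 to 332, with overlap.

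T cell markers rose in 8 of 26 with none lower, against 36.0% higher over the panel, and their median of 0.51 turned to -0.13 with equal panel medians. T cell calls were none higher and 5 lower with equal panel medians and none and 1 with median-ratio scaling. The summed signal of 5 T cell markers was 93.3 to 151 against 55.6 to 137 and overlapped. Cd8a had signals of 9.14, 6.85, 2.06, 4.24 and 7.84 with the anti-rHER2 ISAC and 7.65, 2.27, 5.98, 1.18 and 4.89 with the isotype ISAC, a log2 fold change of 0.43 ± 0.36 that did not pass (adjusted p = 0.381) and was negative with equal panel medians. The members that rose most were also low. Icos, a co-stimulatory receptor of activated T cells, was 21.4 to 46.6 against 11.01 to 23.9 (log2 fold change 1.15 ± 0.37, adjusted p = 0.0169), Cd27, a TNF receptor family member, 4.48 to 11.3 against 1.91 to 4.89 (0.89 ± 0.33, adjusted p = 0.0373) and Cd3e, a chain of the T cell receptor complex, 8.96 to 18.6 against 4.54 to 16.2 (0.88 ± 0.30, adjusted p = 0.0265). The Icos call was no longer made with equal panel medians and with median-ratio scaling, at a log2 fold change of 0.46 to 0.80 and an adjusted p of 0.0611 to 0.236. For Cd27 the call was no longer made with equal panel medians, with median-ratio scaling and without isotype ISAC replicate 1, 2 or 3 or without anti-rHER2 ISAC replicate 1, 2, 3 or 4, at a log2 fold change of 0.29 to 0.92 and an adjusted p of 0.0515 to 0.443. For Cd3e it was no longer made with equal panel medians, with median-ratio scaling, with only these 10 tumours in the fit, by edgeR and without isotype ISAC replicate 1, 2, 4 or 5 or without anti-rHER2 ISAC replicate 1 or 3, at a log2 fold change of 0.23 to 0.88 and an adjusted p of 0.0519 to 0.482.

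B cell genes rose in 3 of 16, against 36.0% of the panel, with a median of 0.43 that turned to -0.21 with equal panel medians. Of the 16, 9 had at most 10 counts in every ISAC tumour, against 118 of 770 over the panel. B cell calls were 2 higher and 2 lower with equal panel medians and 3 and 1 with median-ratio scaling. The genes that rose included Cd79b, a chain of the B cell receptor, at 1.97 ± 0.26, and Blnk, an adaptor of that receptor, at 0.86 ± 0.16 on the log2 scale (adjusted p = 6.7e-06 and 0.000396), Blnk not being called with equal panel medians.

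Mast cell and eosinophil genes rose in 4 of 14 and fell in 1, against 36.0% and 3.90% of the panel. Their median of 0.31 turned to -0.17 with equal panel medians. Of the 14, 7 had at most 10 counts in every ISAC tumour, against 118 of 770 over the panel. Mast cell and eosinophil calls were 1 higher and 1 lower with equal panel medians and 2 and 1 with median-ratio scaling. Ccl11, eotaxin, was 367 to 604 against 110.0 to 280.4 (log2 fold change 1.29 ± 0.25, adjusted p = 0.00044), and its receptor Ccr3 13.4 to 49.4 against 5.91 to 12.8 (1.44 ± 0.44, adjusted p = 0.0131), Ccr3 not being called with equal panel medians. Il5ra, the interleukin-5 receptor chain of eosinophils, was 2.24 to 6.40 against 1.00 to 5.91 (log2 fold change 0.99 ± 0.36, adjusted p = 0.0352), and that call was no longer made with a pseudocount of 10, with equal panel medians, with median-ratio scaling, with only these 10 tumours in the fit, by edgeR and without isotype ISAC replicate 1, 2, 3 or 5 or without anti-rHER2 ISAC replicate 1, 2, 3 or 4, at a log2 fold change of 0.27 to 1.19 and an adjusted p of 0.0506 to 0.298.

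Inflammasome and cell death genes rose in 6 of 20 and fell in 2, against 36.0% and 3.90% of the panel, with a median of 0.06 that turned to -0.66 with equal panel medians and -0.30 with median-ratio scaling. Inflammasome and cell death calls were none higher and 14 lower with equal panel medians and 2 and 9 with median-ratio scaling. Over the panel they were 79 and 301, then 164 and 142, of 770 genes. Nlrp3, the sensor of the inflammasome that activates caspase-1, rose by 1.00 ± 0.17 and Tnfrsf1b, the second TNF receptor, by 0.93 ± 0.15 on the log2 scale (adjusted p = 0.000147 and 7.9e-05), neither being called with equal panel medians. Nod2, a sensor of bacterial peptidoglycan, was 5.99 to 14.4 against 2.27 to 7.65 (log2 fold change 0.91 ± 0.34, adjusted p = 0.0403), a call that was no longer made with equal panel medians, with median-ratio scaling, with only these 10 tumours in the fit, by edgeR and without isotype ISAC replicate 2 or 4 or without anti-rHER2 ISAC replicate 1, 4 or 5, at a log2 fold change of 0.28 to 0.93 and an adjusted p of 0.0587 to 0.491.

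**Figure D3:**
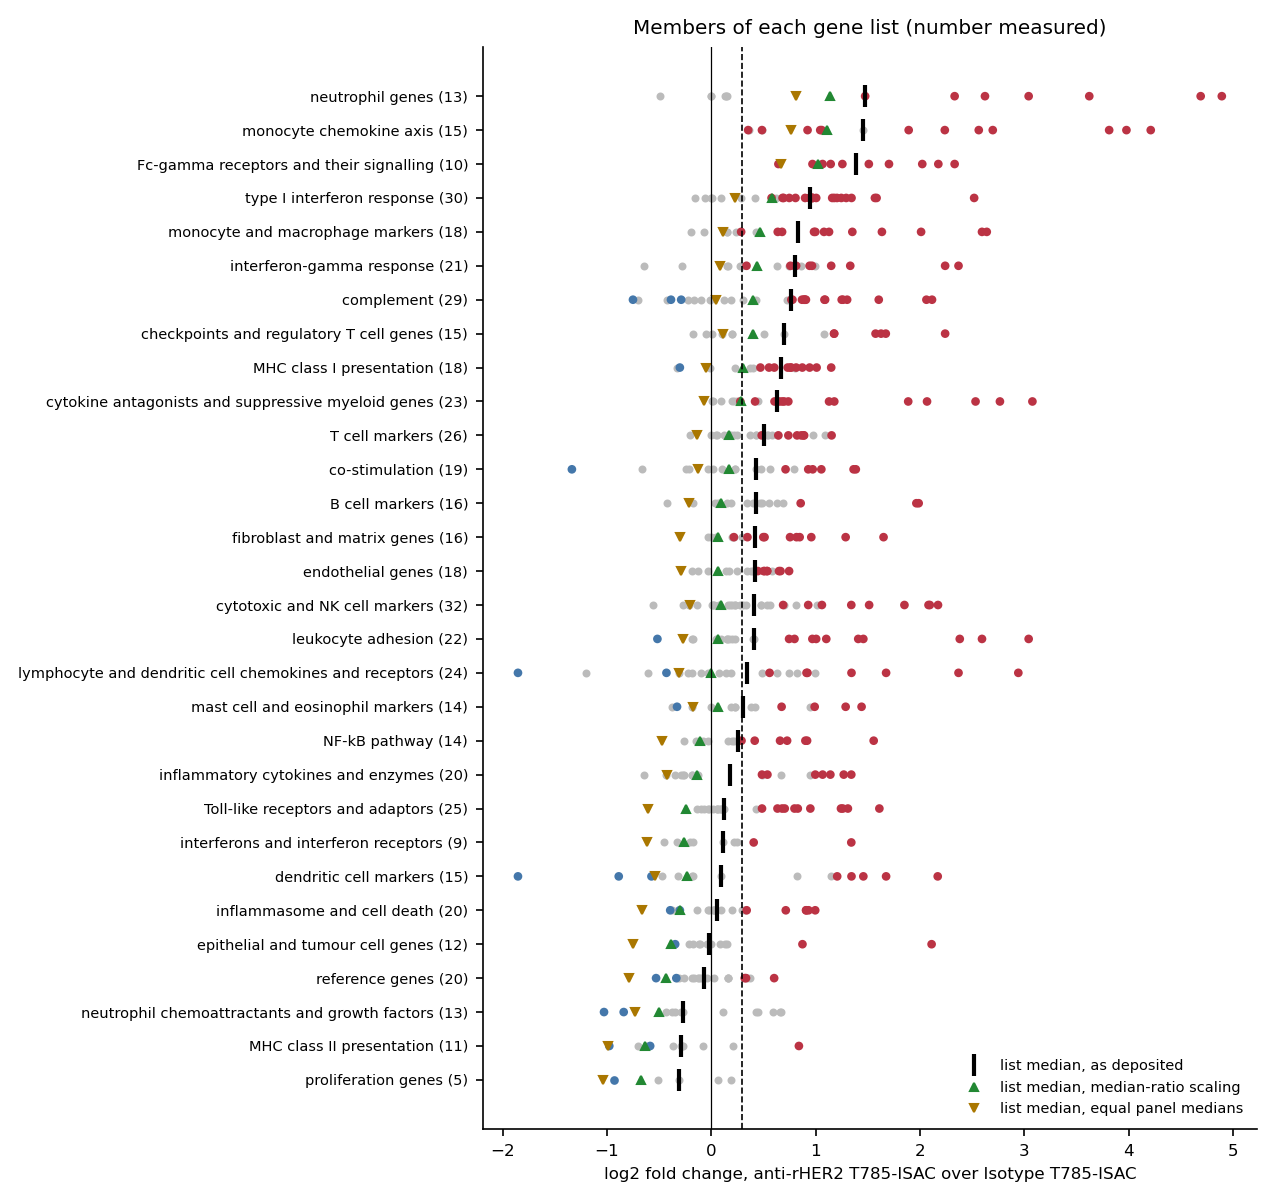
Log2 fold change of every measured member of the gene lists, anti-rHER2 ISAC over isotype ISAC, with the median of each list marked. The Fc-gamma receptor list has all 10 members above 0, and the MHC class II list has a median of -0.29.

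Fibroblast and matrix genes rose in 10 of 16 with none lower, against 36.0% higher over the panel. Their median of 0.42 turned to -0.30 with equal panel medians. Fibroblast and matrix calls were 2 higher and 8 lower with equal panel medians and 5 and none with median-ratio scaling. Mmp9, a gelatinase made by neutrophils and macrophages as well as stromal cells, rose by 1.65 ± 0.22 and Thbs1, thrombospondin-1, by 0.96 ± 0.16 on the log2 scale (adjusted p = 9.8e-06 and 0.000121), Thbs1 not being called with equal panel medians. Endothelial genes rose in 8 of 18, against 36.0% of the panel, with a median of 0.42 that turned to -0.29 with equal panel medians. Endothelial calls were none higher and 5 lower with equal panel medians and 1 and 2 with median-ratio scaling. Pecam1, a junction molecule of endothelium and leukocytes, rose by 0.75 ± 0.15 and Eng, endoglin, by 0.65 ± 0.14 (adjusted p = 0.000665 and 0.000871). Neither was called with equal panel medians, and the Eng call was also lost with median-ratio scaling. Angpt2, a destabilizing ligand of TIE2, was 58.2 to 106 against 34.1 to 67.3 (log2 fold change 0.66 ± 0.24, adjusted p = 0.0345), and its call was no longer made with equal panel medians, with median-ratio scaling and without isotype ISAC replicate 1, 2, 3 or 4 or without anti-rHER2 ISAC replicate 4 or 5, at a log2 fold change of -0.05 to 0.67 and an adjusted p of 0.0515 to 0.887. The fibroblast marker sum was 16940 to 33358 against 15835 to 18957, and the endothelial sum 619.9 to 822 against 402 to 575.

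Epithelial and tumour cell genes rose in 2 of 12 and fell in 1, against 36.0% and 3.90% of the panel, with a median of -0.02. Epithelial calls were 1 higher and 10 lower with equal panel medians and 2 and 7 with median-ratio scaling, at medians of -0.74 and -0.39. Erbb2, the mouse gene of the HER2 receptor, had signals of 1759, 2127, 1507, 2408 and 1851 with the anti-rHER2 ISAC and 1917, 1744, 1439.7, 2041 and 1617 with the isotype ISAC. The groups overlapped, with a log2 fold change of 0.13 ± 0.13 that did not pass (adjusted p = 0.436). Erbb2 was called lower with equal panel medians (-0.59, adjusted p = 0.00917) and was negative but not called with median-ratio scaling (-0.23, adjusted p = 0.232). Whether the mouse probe also reads the rat transcript was not tested. Epcam, an epithelial adhesion molecule, was 4390.2 to 5814 against 5475 to 7192 (log2 fold change -0.21 ± 0.11, adjusted p = 0.124) and was called lower under both other scalings. The summed signal of Epcam, Cdh1, Erbb2 and Muc1 was 7029.5 to 9560.4 against 8310.1 to 10652, so that epithelial markers of a mammary carcinoma were high in every tumour. The member that rose most, Ambp, encodes the precursor of alpha-1-microglobulin and bikunin, a plasma protein of liver. It was 8.56 to 23.7 against 1.00 to 7.95 (log2 fold change 2.11 ± 0.37, adjusted p = 0.000165). Muc1, a membrane mucin, rose by 0.87 ± 0.15 (adjusted p = 0.000165) and was not called with equal panel medians, and Cd9, a tetraspanin, fell with a log2 fold change of -0.35 ± 0.09 (adjusted p = 0.00687).

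**Figure D4:**
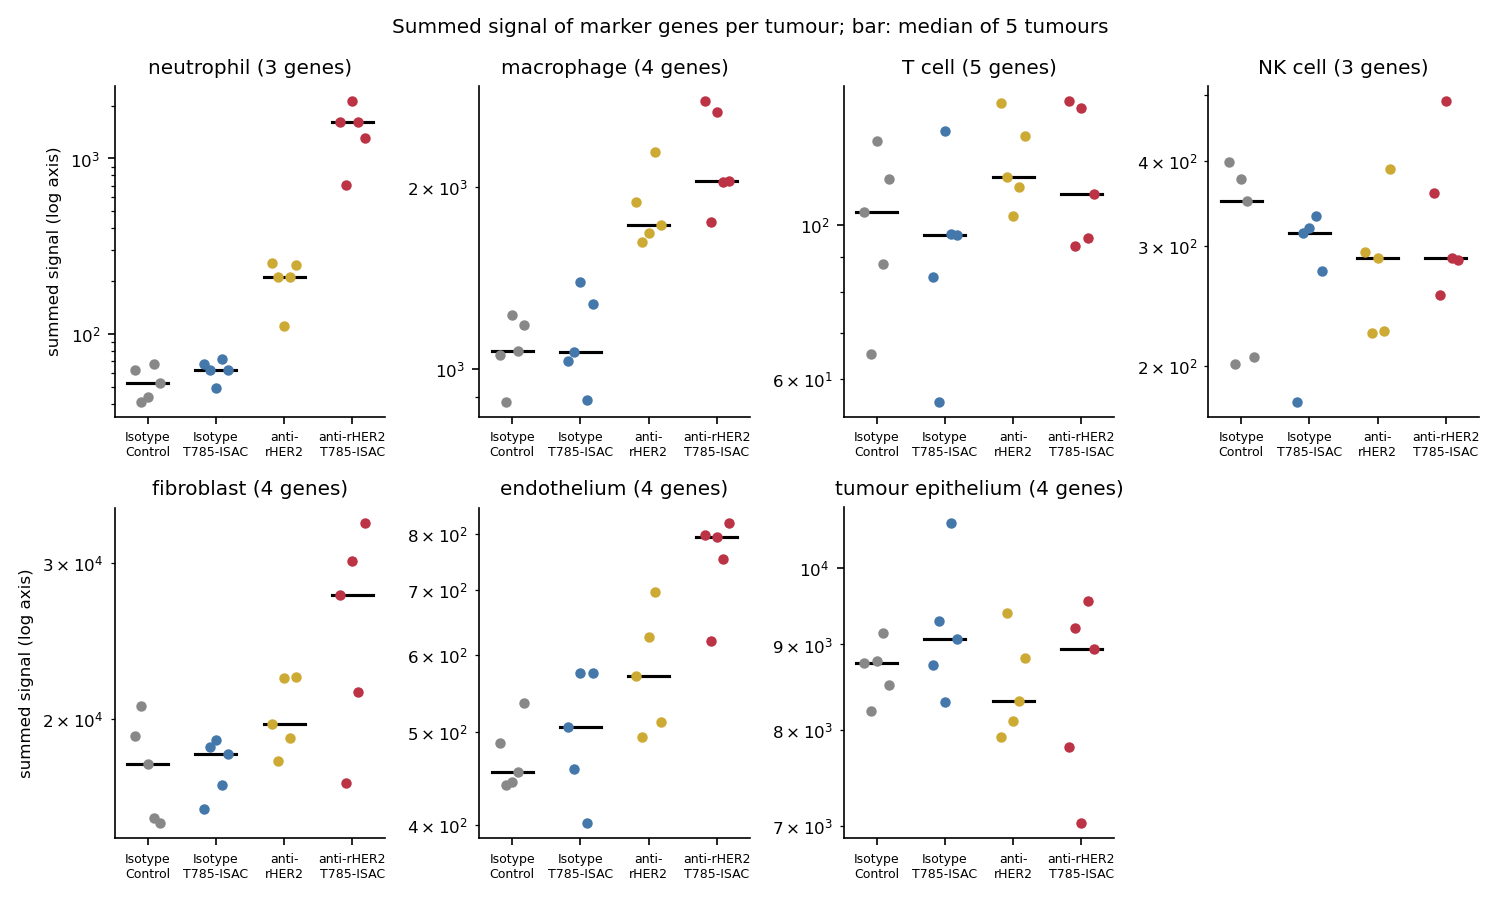
Summed normalized signal of the markers of each cell type in every tumour of the 4 groups on a log axis, each point being 1 tumour and each bar a group median. Neutrophil sums are 708 to 2123 with the anti-rHER2 ISAC against 49.6 to 72.1 with the isotype ISAC, while NK cell sums overlap.

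Of 5 proliferation genes 1 fell, and 0 rose at an adjusted or an unadjusted p below 0.05 by limma or by edgeR. The panel shares at the adjusted p by limma were 36.0% higher and 3.90% lower. Proliferation calls were none higher and 5 lower with equal panel medians and none and 3 with median-ratio scaling, at medians of -1.03 and -0.67. Birc5, survivin, which is made in dividing cells, had signals of 75.9, 80.5, 77.4, 74.6 and 74.0 with the anti-rHER2 ISAC and 188, 141, 154, 125 and 133 with the isotype ISAC. The first group was narrow and lay wholly below the second (log2 fold change -0.93 ± 0.13, adjusted p = 1.3e-05). Among 20 reference genes 3 rose and 2 fell, against 36.0% and 3.90% of the panel, with a median of -0.07. Reference gene calls were none higher and 17 lower with equal panel medians and none and 12 with median-ratio scaling, at medians of -0.79 and -0.43. The deposited scaling holds the geometric mean of these 20 genes at 389.26 to 389.27 in every tumour. The largest rise among them was Gusb at 0.60 ± 0.13 (adjusted p = 0.00141), which was not called under either other scaling and was negative with equal panel medians, and Ppia, cyclophilin A, fell with a log2 fold change of -0.33 ± 0.10 (adjusted p = 0.0156). Edc3, an mRNA decapping factor, was 108 to 126 against 109 to 269.6 (log2 fold change -0.53 ± 0.20, adjusted p = 0.0448), a call that was no longer made with a replicate block, with only these 10 tumours in the fit and without isotype antibody replicate 1 or 5 or without isotype ISAC replicate 2, 4 or 5 or without anti-rHER2 replicate 1, 2 or 3 or without anti-rHER2 ISAC replicate 1, 3, 4 or 5, at a log2 fold change of -0.56 to -0.36 and an adjusted p of 0.0501 to 0.14. Aire, the regulator of thymic self-antigen expression, was 1.03 to 1.83 against 1.71 to 4.89, a few counts in both groups, so that no fold is given, and its call was no longer made by edgeR and without isotype ISAC replicate 4 or 5 or without anti-rHER2 ISAC replicate 3, at an adjusted p of 0.0518 to 0.0816.

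Whether binding changed the tumours as much without the payload was asked by setting anti-rHER2 against the isotype antibody in the same fit. Without T785 68 genes were higher and 2 lower, 8.83% and 0.260% of the panel, and 56 genes of these 68 and of the 277 rose in both settings. The 68 fell to 21 when isotype antibody replicate 2 or anti-rHER2 replicate 4 was left out, and to 26, 31, 32 and 41 without anti-rHER2 replicate 5, anti-rHER2 replicate 1, isotype antibody replicate 4 and isotype antibody replicate 1. The binding effect itself differed with the payload (interaction) in 55 genes. Its signed log2 fold change was higher with T785 in 53 (6.88% of the panel) and lower in 2 (0.260%). All 53 were among the 277 that rose with binding, and 36 of them were not called without T785. With equal panel medians the signed change was higher with T785 in 36 genes and lower in 47, and with median-ratio scaling in 46 and 11.

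Ccl3 had the largest interaction. Its signals without T785 were 13.0, 2.98, 8.26, 17.8 and 15.5 with anti-rHER2 and 8.47, 11.5, 16.5, 5.32 and 19.4 with the isotype antibody, all low and overlapping, a log2 fold change of -0.15 ± 0.41 (adjusted p = 0.865). The effect with T785 exceeded that by 4.36 ± 0.58 on the log2 scale (adjusted p = 5.1e-05). Cxcl13, Ccl4, Ccl5 and Ccl12 followed, with interaction differences of 3.47 ± 0.57, 3.38 ± 0.45, 3.29 ± 0.40 and 2.94 ± 0.41 (adjusted p = 0.00038, 5.1e-05, 2.7e-05 and 6.6e-05), and none of them was called without T785. Fcgr4 had signals of 127, 93.3, 123, 166 and 117 with anti-rHER2 and 109, 123, 140.2, 150.2 and 127 with the isotype antibody, a log2 fold change of -0.07 ± 0.15 (adjusted p = 0.832). Its interaction was 2.399 ± 0.21 (adjusted p = 7.8e-07), the smallest p of the named genes.

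S100a8 and Cxcr2 rose with binding in both settings, by 2.14 ± 0.30 and 2.57 ± 0.36 on the log2 scale without T785 (adjusted p = 0.000453 and 0.000453), and by 2.76 ± 0.42 and 2.12 ± 0.51 more with it (adjusted p = 0.000193 and 0.0125). For some genes the test found no difference between the settings. Tlr8 rose by 1.00 ± 0.17 without T785 (adjusted p = 0.0014), and its interaction of 0.31 ± 0.24 did not pass (adjusted p = 0.522). Cxcl1 fell in both, with a log2 fold change of -0.89 ± 0.22 without T785 (adjusted p = 0.021) and an interaction of 0.05 ± 0.31 (adjusted p = 0.953). Such a p does not show that the effects were alike. The interactions of Cd274, 1.08 ± 0.42, and of Cxcl9, 1.41 ± 0.53, also missed the threshold (adjusted p = 0.146 and 0.139).

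The 2 genes called with a lower signed log2 fold change with T785 than without it were MHC class II genes. H2-Ab1 had signals of 2845, 1991, 1980.4, 3302 and 2314 with anti-rHER2 and 2724, 1742, 3166, 1922 and 2529 with the isotype antibody, a log2 fold change of 0.05 ± 0.21 (adjusted p = 0.931), and an interaction of -1.02 ± 0.29 (adjusted p = 0.0358). H2-Ea-ps, annotated as a pseudogene of the class II E alpha chain, was 25.7 to 75.0 with the anti-rHER2 ISAC and 51.7 to 105 with the isotype ISAC, a log2 fold change of -0.70 ± 0.28 that missed the threshold (adjusted p = 0.0521). H2-Ea-ps was called lower with equal panel medians (-1.41, adjusted p = 6.3e-05), with median-ratio scaling (-1.06, adjusted p = 0.00235) and in 9 other settings. Those were a pseudocount of 10, the genes of lowest mean signal left out, a replicate block, a trended prior, and leaving out isotype ISAC replicate 1 or 2, anti-rHER2 replicate 2 or 4 or anti-rHER2 ISAC replicate 1, at a log2 fold change of -0.88 to -0.60 and an adjusted p of 0.0196 to 0.0497. Without T785 it was 0.87 ± 0.28 (adjusted p = 0.0541), and the interaction was -1.57 ± 0.39 (adjusted p = 0.0146).

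**Figure D5:**
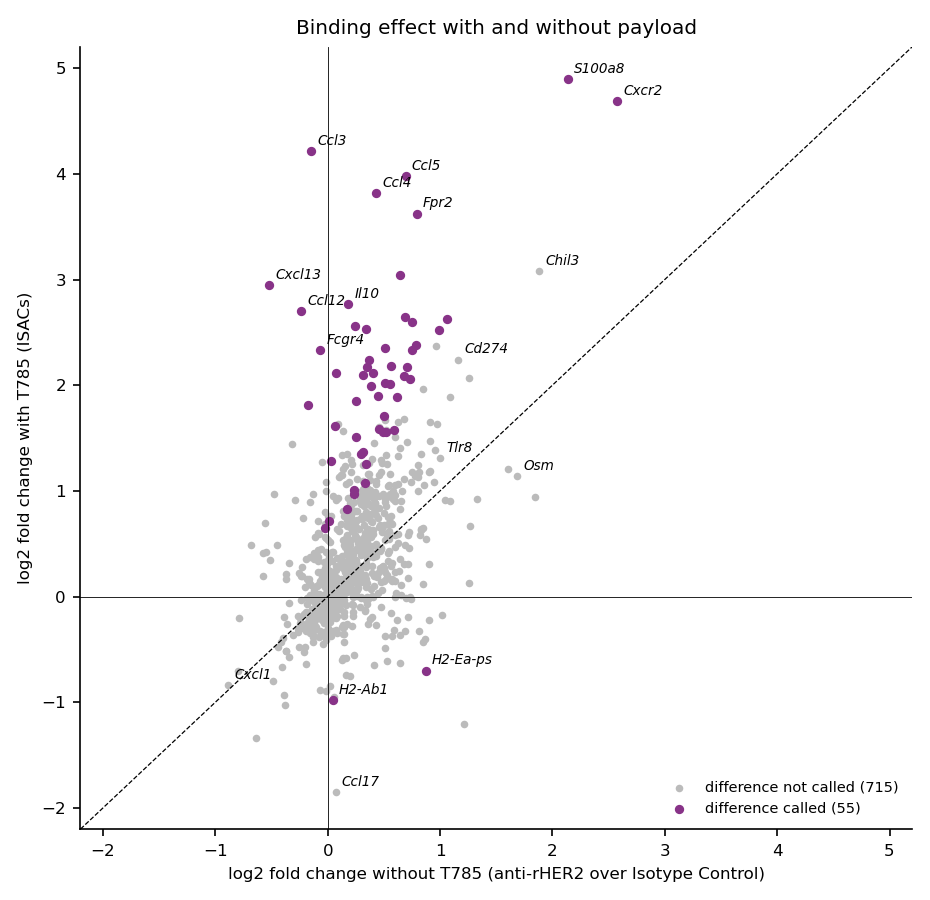
Log2 fold change of each gene with binding when both antibodies carry T785, on the vertical axis, against that when neither does, on the horizontal axis, with genes called in the interaction marked. Ccl3 lies at 4.21 with T785 and -0.15 without. The 2 genes called with a lower signed change with T785, H2-Ab1 and H2-Ea-ps, lie below the line of equal effect.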

How the data were processed

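Signals of 770 genes in 20 tumours were measured with an nCounter panel on RNA purified with the RNeasy kit from tumour kept in RNAlater, per the labels' protocols. The deposited values are a normalized signal on a linear scale, made by the authors. Their normalization and background treatment, and the cartridge or run of each tumour, are not given in the sources, so no batch was tested. In each tumour's deposited signal, 100% of the values between 1 and 1000 were multiples of a single step (0.826 to 1.33), within 0.02 of a count. Division by it recovered 271793 to 508433 counts per tumour, of which Lcn2 took 22.9% to 33.5%. In every tumour the step was sought in the lowest values and then refined on values up to 1000. No value was below 1. With 1 count as the minimum, 693 values were set at 1 count. Of these, 344 were exactly 1, all in tumours with a step below 1, so they mark a floor and need not be 1 count. The geometric mean of 20 reference genes was 389.26 to 389.27 in every tumour. No tumours were duplicates, since a chi-square test of counts gave 4.59 or more per degree of freedom for any pair in a group. Of the symbols, 762 of 770 matched RefSeq (GRCm38.p6), 1 pair standing for the same gene, and they are printed as deposited.

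Groups came from the treatment label. Log2(signal + 1) of all 20 tumours was fitted with limma 3.58.1 in R 4.3.3, with a mean per group and eBayes without a trend, and no gene was filtered out. The 3 contrasts were binding with T785, binding without it, and their difference. The p values are 2-sided, adjusted by Benjamini-Hochberg over 770 genes, and a gene was called below 0.05. Fold changes on this scale understate changes of genes near the floor. A p value measures the spread between mice carrying 1 tumour line.

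Alternatives were a pseudocount of 10, leaving out the 193 genes of lowest mean, equal panel medians, median-ratio scaling, a replicate block, only the compared groups, a trended robust prior, edgeR 4.0.16 (quasi-likelihood on recovered counts, keeping the deposited scaling) and leaving out each tumour. The main fit did not pair tumours by replicate number. The deviations of same-numbered ISAC tumours correlated at -0.124 to 0.0834, above 0.1 in 0 of 5 pairs. Over all pairs of groups they ranged from -0.177 (isotype ISAC with anti-rHER2, replicate 1) to 0.253 (isotype antibody with anti-rHER2, replicate 2). Such correlations cannot exclude a pairing. The limma and edgeR tests were tried on simulated data with known changes, whose mean size they recovered.

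The comparison, the lists and the rule for named genes were chosen with earlier results of these data known, so a list's count is a description and not independent evidence. The 30 gene lists had 5 to 32 measured members. Named genes were the 15 highest and 10 lowest fold changes among called genes outside the reference list, up to 3 called genes per list, taken by size of change (or the largest member where none was called), 21 genes named in every case, and the 5 highest and lowest called interactions. Of the genes this allows, some are not reported here, and 99 are.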

Additional observations from a re-analysis of the deposited data

Results flagged for a closer look

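For 20 of 198 groups of 5 tumours tested (each named gene in each ISAC group), 1 tumour stood apart from the other 4 by Dixon's criterion on the linear signal. For independent, normally distributed values it flags about 1 in 20 groups. The genes share the same 10 tumours and normality was not tested, so no excess over chance can be read from this count. In the anti-rHER2 ISAC group, replicate 3 was high in 6 of the 20 flagged groups. Its signals were 268 for Ccl3 (other 4 at most 128), 153 for Ccl4 (91.6), 1152.5 for Ccl2 (522), 89.8 for Mmp9 (61.7), 23.7 for Tnf (7.63) and 210 for Ncr1 (132). Elsewhere in that group, replicate 1 had 1619 for Ifit3 (others at most 1088). Replicate 5 had 56.0 for Tnfsf18 (25.7), 106 for Angpt2 (68.7) and 1.12 for C9 (1.03, with each tumour at its lowest value). Replicate 2 was low, at 4.28 for Il6 (others at least 9.14) and 98.5 for Cxcl10 (149.96).

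In the isotype ISAC group, replicate 5 had 84.4 for Il1rn (others at most 67.0), 25.7 for Mmp9 (18.8) and 67.3 for Angpt2 (43.6). Replicate 3 had 23.9 for Icos (13.4) and 16.2 for Cd3e (6.12), replicate 4 had 5.91 for Il5ra (1.22), and replicate 1 had 7.65 for Ifnb1 (2.56) but only 43.05 for Gzmb (others at least 72.7).

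The binding effect differed between the settings with and without T785, by the interaction test, in 33 named genes. On the log2 scale, the effect with T785 exceeded that without it by 4.36 for Ccl3, 3.47 for Cxcl13, 3.38 for Ccl4, 3.29 for Ccl5, 2.94 for Ccl12 and 2.32 for Ccl2 among chemokines. Among neutrophil and phagocyte genes the differences were 2.83 for Fpr2, 2.76 for S100a8, 2.12 for Cxcr2, 1.56 for Csf3r, 1.95 for Slc11a1, 1.84 for Itgam, 1.60 for Itgb2, 1.46 for Msr1, 1.47 for Clec4a2, 1.72 for C5ar1 and 1.33 for C3ar1. Fc receptor and signalling genes followed, with 2.399 for Fcgr4, 1.20 for Fcgr1, 1.51 for Fcer1g, 1.55 for Tlr1 and 1.04 for Ikbke. The cytokines Il10 and Il1rn had 2.59 and 2.19, and the interferon-induced Ifitm1 and Oasl1 1.53 and 1.13. For genes of lymphocytes and other cells it was 1.82 for Gzmb, 1.78 for Prf1, 1.40 for Klra17, 1.05 for Slamf7 and 2.03 for Ambp. It was below 0 for H2-Ab1, at -1.02, and H2-Ea-ps, at -1.57. Adjusted p lay between 7.8e-07 for Fcgr4 and 0.047 for Prf1.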

How the results depend on the processing

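With T785 on both antibodies, the count of higher genes was 277 and stayed between 256 and 289 under a pseudocount of 10, the filter on low genes, only the compared groups, edgeR and the trended prior, and 30 lower genes became 22 to 34. Scaling moved both, to 79 higher and 301 lower with equal panel medians and 164 and 142 with median-ratio scaling. Leaving out 1 tumour gave 238 to 291 higher and 23 to 35 lower. The replicate block, which treats same-numbered tumours as a set, gave 265 higher and 33 lower with T785, 69 and 3 without it and 59 interactions.

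Without T785, 68 higher and 2 lower became 12 and 11 with equal panel medians, 22 and 12 with median-ratio scaling, 33 and 0 with only the compared groups (11 lower at an unadjusted p below 0.05 with all tumours in the fit), and 21 to 80 and 1 to 4 with 1 tumour left out. Lower genes were 5 with a pseudocount of 10, 7 with the filter, 6 by edgeR and 6 with the trended prior. Interactions went from 55 to 83 with equal panel medians and 47 to 67 with 1 tumour left out. The panel median difference of 37.2 stayed at 34.1 to 41.6.

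With equal panel medians the sign turned for Ifngr1 (-0.32), Angpt2 (-0.048), Eng (-0.070), Gusb (-0.12), Erbb2 (-0.59), Tlr7 (-0.27), Fcgr3 (-0.077), Cd86 (-0.61), Tnf (-0.14), Cd8a (-0.14) and Ncr1 (-0.54), and with median-ratio scaling for Erbb2 (-0.23), Cd86 (-0.26) and Ncr1 (-0.18), as log2 fold changes. Ifnb1 ranged from -0.50 to 0.00087 with 1 tumour left out, turning sign only without isotype ISAC replicate 1. List medians that turned, with equal panel medians and then, where it turned, with median-ratio scaling, were -0.60 and -0.24 for Toll-like receptors, -0.47 and -0.11 for NF-kB, -0.42 and -0.14 for inflammatory cytokines, -0.62 and -0.26 for interferons and receptors, -0.54 and -0.23 for dendritic cells, -0.66 and -0.30 for inflammasome genes, -0.30 for lymphocyte chemokines, -0.072 for antagonists, -0.053 for MHC class I, -0.13 for co-stimulation, -0.20 for cytotoxic genes, -0.13 for T cells, -0.21 for B cells, -0.17 for mast cells, -0.27 for adhesion, -0.30 for fibroblasts and -0.29 for endothelium. The cause was not tested. Of 89 named genes called, 56 were also called under both other scalings. In each tumour 147 to 215 genes of the ISAC groups stood under 10 counts, which limits the precision of their values.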

Other observations

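Other genes described here were chosen after their values were seen. Outside the lists, Pou2f2, which encodes the transcription factor OCT-2 of B cells and macrophages, had signals of 219, 170.4, 222, 176 and 212 with the anti-rHER2 ISAC and 36.4, 37.5, 38.5, 31.9 and 47.7 with the isotype ISAC, and the groups did not overlap (limma log2 fold change 2.35 ± 0.13, adjusted p = 2.6e-10). Cd180, a receptor related to Toll-like receptors on B cells and macrophages, was 248 to 488 against 43.0 to 84.6 (log2 fold change 2.33 ± 0.23, adjusted p = 1.5e-07). Ptprc, the CD45 antigen of all leukocytes, was 459.8 to 679 against 148 to 238 (log2 fold change 1.55 ± 0.15, adjusted p = 1.3e-07).

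Among neutrophil genes, those of granule contents stood near the floor in both groups, while Cxcr2, Fpr2 and Csf3r rose. Mpo, myeloperoxidase, was 2.24 to 4.28 with the anti-rHER2 ISAC and 2.27 to 5.98 with the isotype ISAC, Elane, neutrophil elastase, 1.00 to 6.40 and 1.14 to 2.87, Ltf, lactoferrin, 1.00 to 3.66 and 1.00 to 4.54, and Camp, the cathelicidin, 1.12 to 5.49 and 1.71 to 3.67. None of these 4 passed the test (adjusted p = 0.999, 0.809, 0.271 and 0.764). Trem1, an activating receptor of neutrophils and monocytes, was 15.4 to 27.9 against 3.67 to 10.2 (log2 fold change 1.48 ± 0.43, adjusted p = 0.0103).

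The decoy receptor gene Il1r2, which binds interleukin-1 without signalling, was 17.1 to 34.8 against 3.55 to 11.1 (log2 fold change 1.89 ± 0.34, adjusted p = 0.000221), and Arg2, a mitochondrial arginase, 9.42 to 29.9 against 2.45 to 4.78 (2.07 ± 0.26, adjusted p = 4.5e-06). Ccr2, the chemokine receptor of inflammatory monocytes, was 37.7 to 119.7 against 26.8 to 48.7 (log2 fold change 0.92 ± 0.30, adjusted p = 0.0195).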
